A study of Mus musculus with 12 samples.

Results

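Follicular helper T cells (Tfh) sorted for high reporter signal from the S1pr2 gene (Venus-high Tfh, 3 arrays) were compared with naive CD4+ T cells (2 arrays). These groups were chosen by their sample titles and make up 5 of the 12 arrays of the study. Every mouse carried 1 allele of S1pr2 that encodes the fluorescent protein Venus (S1pr2V/+), so Venus marks cells in which that locus is active. Venus-high Tfh came from lymph nodes taken 10 days after subcutaneous immunization with chicken gamma globulin (CGG) in complete Freund's adjuvant (CFA), and were sorted as CD4+ cells that were CXCR5+, PD1-high and CD44-high with high Venus signal, and negative for a set of excluded markers (Dump-). The 3 arrays held cells pooled from 4, 6 and 4 mice. Naive cells came from spleen, 2 mice per array, gated as CD4+, CD44-low and Dump-, with 1 further surface marker. Their sample labels describe the same immunization, whereas the series' design text also mentions control mice, so whether the naive donors had been immunized is unclear. PD1-low T helper (Th) cells, from lymph nodes of immunized mice and gated as CD4+, CXCR5-low, PD1-low, CD44-high and Dump- (2 arrays, pools of 6 and 4 mice), are given beside the comparison, because tissue and cell state differ together between Venus-high Tfh and naive cells. Those effects cannot be told apart in a direct comparison.

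Tfh are the CD4+ T cells that enter B cell follicles and germinal centres, where they support B cell selection through CD40 ligand, IL-4 and IL-21 under the transcription factor Bcl6. Naive CD4+ T cells recirculate through blood, spleen and lymph node: CCR7 guides them into the T cell zone, and the sphingosine-1-phosphate (S1P) receptor S1PR1 lets them leave again toward the S1P of lymph and blood. S1PR2 is a receptor of the same family that couples to G12 and G13 proteins, opposes migration toward S1P and helps to hold germinal centre cells in the follicle.

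Values are log2 signals per probe set, and a difference is the Venus-high mean minus the naive mean in log2 units, with its standard error (SE). The arrays fell into 3 sets by their value quantiles, which the labels do not name: set 1 holds Venus-high 1 and naive 1, set 2 holds Venus-high 2, naive 2 and PD1-low 1, and set 3 holds Venus-high 3 and PD1-low 2 but no naive array. The 75% quantiles of the arrays were 8.50 to 8.55, 8.68 to 8.76 and 9.39 to 9.42 in these sets. The 18 hybridization control probe sets had a median of 2.33 in set 2 against 12.77 and 12.85 in sets 1 and 3, and 3315 of 45101 probe sets were displaced by more than 3 log2 units in set 2. The signal of the 3′ actin probe set over the 5′ one, a sign of RNA quality and amplification, was 2.68, 0.09 and 1.00 log2 units in Venus-high 1, 2 and 3 and 2.18 and -0.19 in naive 1 and 2. The Gapdh pair gave 3.08, -0.94 and 0.65 in Venus-high and 2.63 and -0.39 in naive arrays. Within sets 1 and 2 the actin value was higher in Venus-high than in naive cells, and that of Gapdh was higher in set 1 and lower in set 2. The part of this measure in the results was not tested. Markers common to T cells (Cd3d, Cd3e, Cd3g, Cd4 and others, 8 of 8 measured) were averaged on each array. Their mean log2 level was 13.59 to 13.99 on Venus-high and 13.36 to 13.48 on naive arrays. No statement says that the arrays of a group are separate experiments, so p-values measure the spread between these arrays.

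Among 9893 genes, 938 were higher in Venus-high Tfh (9.48%) and 418 were lower (4.23%), by limma with an adjusted p under 0.05. Over the 9893 genes, called or not, 2241 had every Venus-high array above both naive arrays and 1101 had every one below them. All 1356 called genes were without overlap between the 3 Venus-high and the 2 naive arrays in this way. With so many other genes also separated, the lack of overlap adds little to a call. The changes were large: 449 rises and 154 falls exceeded 3 log2 units, which is 8-fold. In 325 of the rises both naive arrays lay below log2 5, the level used here as the floor of measurable signal, and in 103 of the falls all Venus-high arrays did. With the array set as a term in the fit, the 1356 genes were all called again with the same sign. Both fits use the same arrays, so this is no independent support. The counts became 2001 higher (20.2%) and 2065 lower (20.9%). The calls shifted from 69.2% higher to 49.2% higher between these fits, as the median difference over all genes went from 0.18 to -0.02 and the median SE from 0.45 to 0.17. Leaving out naive array 1 lowered the counts to 606 and 247, leaving out naive array 2 to 564 and 254, and leaving out the 4 arrays of set 2 to 327 and 150.

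**Figure D1:**
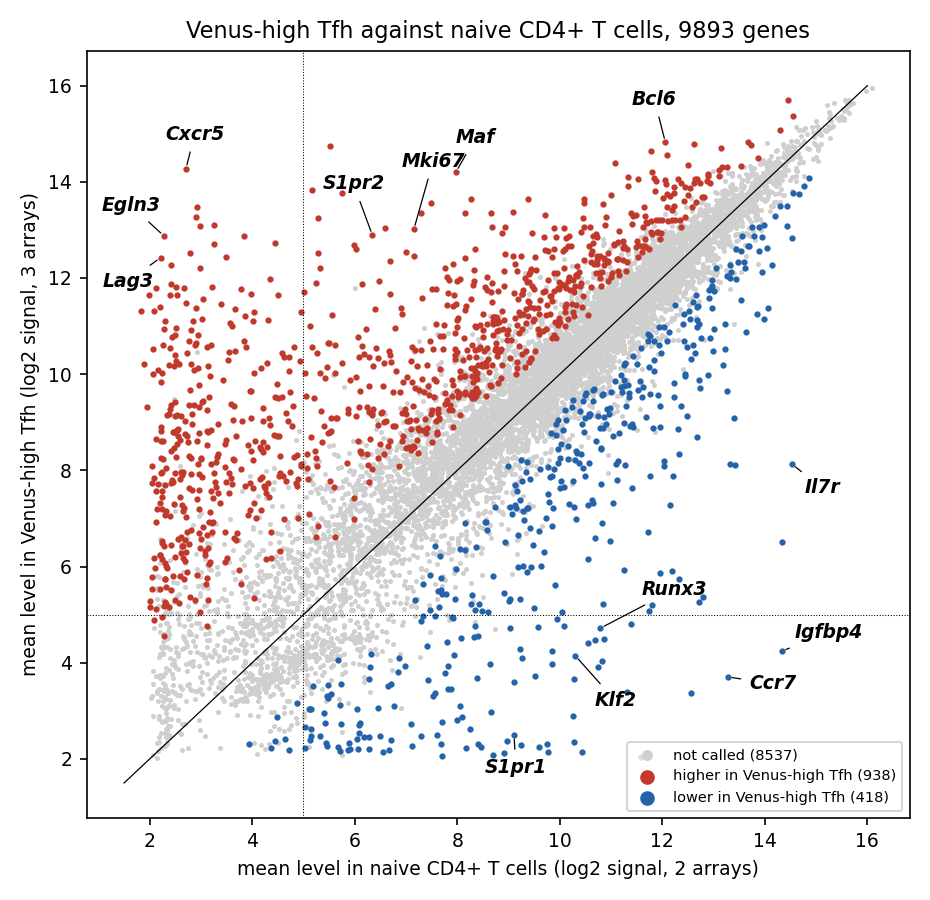
Mean log2 signal of 9893 genes in naive CD4+ T cells (x axis, 2 arrays) and Venus-high Tfh (y axis, 3 arrays). Red points are the 938 genes called higher and blue points the 418 called lower; the diagonal marks equal levels and the dotted lines log2 5. Egln3, Lag3 and Cxcr5 lie at the left edge, with naive levels below log2 5, and Igfbp4, Ccr7 and S1pr1 lie far below the diagonal.

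The genes of the sort gates are a check of the cells and not a finding. Cxcr5, the receptor for the follicular chemokine CXCL13, was 14.27, 14.26 and 14.28 on Venus-high and 2.51 and 2.90 on naive arrays. Pdcd1, which encodes PD1, was 14.52, 14.88 and 14.83 against 4.55 and 6.49. S1pr2, the gene of the reporter locus, was 13.09, 12.58 and 12.99 against 5.78 and 6.91. Cd44, an adhesion receptor of activated T cells, stood at 11.38, 12.77 and 13.48 against 6.55 and 7.46. All of these were separate between groups in the direction of the gates, whereas Cd4, used to sort both, was 13.53 to 14.35 on Venus-high and 13.04 to 13.68 on naive arrays, with overlap.

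Of 22 measured genes of the Tfh programme, 18 rose and 0 fell, against 9.48% and 4.23% of all genes, and the median difference of the list was 3.86 against 0.18 over all genes. With the array set as a term 20 rose and 1 fell, beside 20.2% and 20.9% of all genes. The list includes the genes that direct the Tfh state and those that carry out help for B cells. All gene lists were chosen with earlier results of these data known, so their counts are descriptions and no test. Bcl6, the transcription factor that defines the lineage, was 14.93, 14.79 and 14.75 on Venus-high and 12.01 and 12.11 on naive arrays. The naive arrays thus already carried a high Bcl6 signal, and the rise was 2.76 ± 0.24 (SE, adjusted p = 9.9e-05, limma).

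Other transcription factors of the list moved from lower starting levels. Ascl2, a basic helix-loop-helix factor that induces Cxcr5, was 12.23, 11.91 and 12.68 against 2.48 and 2.36, at least 155-fold higher. Maf, which promotes Il21 transcription, was 13.99, 14.15 and 14.47 against 7.75 and 8.20, a rise of 6.23 ± 0.56. Cebpa, a factor best known from myeloid cells, was 12.50, 14.02 and 13.91 against 2.08 and 3.78 and was at least 357-fold higher. Batf and Irf4, partners in activated T cells, rose by 3.15 and 3.59. Tox2 was 14.65, 2.20 and 14.51 on Venus-high arrays and 3.64 and 2.21 on naive arrays: its probe set is among those displaced in set 2, and it was not called.

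The products that act on B cells were among the list members with the lowest naive levels. Il21 was 10.71, 11.63 and 12.61 on Venus-high and 2.68 and 2.39 on naive arrays, at least 100-fold higher. Il4 was 11.39, 11.54 and 12.51 against 3.03 and 2.01, at least 112-fold higher. Both cytokines were therefore below the floor on both naive arrays and far above it on all Venus-high arrays. Cd40lg, the ligand that B cells need for germinal centre reactions, was 5.31, 7.34 and 9.61 against 4.15 and 6.58, and with this overlap it was not called (adjusted p = 0.49). Icos, a costimulator of Tfh, was 14.73, 14.74 and 14.89 against 12.85 and 12.38, and rose by 2.17 ± 0.35. Sostdc1, a secreted antagonist of BMP and Wnt signals, was at least 102-fold higher. Il21r, the receptor for IL-21, had a difference of -0.90 ± 0.42 that did not pass the test (adjusted p = 0.25) and was the 1 list member called lower with the array set as a term.

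Of 13 measured genes of S1P signalling 3 rose and 3 fell, beside 9.48% and 4.23% of all genes. S1pr2 is 1 of the rises, and as the locus of the sort it is no finding. S1pr1, the egress receptor, was 2.13, 2.75 and 2.62 on Venus-high and 8.51 and 9.70 on naive arrays, at least 17.2-fold lower in Venus-high Tfh (difference -6.61 ± 0.66, adjusted p = 0.00023, limma). No Venus-high array reached the floor for S1pr1, and within array sets 1 and 2 the differences were -6.38 and -6.95. S1pr4, a receptor common on lymphocytes, was lower by a smaller amount, 10.27, 10.67 and 10.90 against 11.73 and 12.15. S1pr3 was 6.18, 7.05 and 10.26 against 2.06 and 2.12, at least 7.12-fold higher, with the wide spread of the Venus-high arrays in its SE of 1.28. Gna13, the G13 subunit through which S1PR2 signals, was 13.64, 13.65 and 14.16 against 11.24 and 12.46, and rose by 1.97 ± 0.38. Arhgef1, the guanine nucleotide exchange factor that links G13 to RhoA, went the other way, at 12.75, 12.82 and 12.43 against 13.56 and 13.83, and fell by 1.03. Rhoa and Gnai2 differed by 0.05 and 0.09 and were not called. Of these calls, S1pr3 was lost without either naive array (adjusted p = 0.097 and 0.096, range 0.00011 to 0.27 over all alternatives) and Gna13 without naive array 1 (adjusted p = 0.060, range 0.00032 to 0.12). Arhgef1 was not called without either naive array (0.053 and 0.13, range 0.00016 to 0.21), nor S1pr4 without either naive array or Venus-high array 1 or 2 (0.075 to 0.21, range 9.4e-05 to 0.39). The count of rises became 1 without naive array 1, which was S1pr2, and that of falls 1, S1pr1, without either naive array.

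Of 13 measured genes of T zone homing and egress, which bring T cells into the T zone or let them leave, 7 fell and 1 rose, with a median difference of -2.59. Of all genes 4.23% fell and 9.48% rose. Ccr7 was 3.46, 3.74 and 3.91 on Venus-high and 13.21 and 13.36 on naive arrays, at least 312-fold lower. Klf2, the transcription factor that drives S1pr1 expression in quiescent T cells, was 4.51, 2.98 and 4.92 against 10.10 and 10.52, at least 39.6-fold lower. Il7r, the receptor for the survival cytokine IL-7, was 8.23, 7.42 and 8.73 against 14.56 and 14.50, a fall of 6.40 ± 0.43 that left it measurable in Venus-high Tfh. Selplg, the P-selectin ligand, was 12.09, 11.16 and 10.51 against 14.26 and 13.42. Itgb7, an integrin chain of homing to gut, fell by 1.43 ± 0.19. Itgal, the alpha chain of LFA-1, was the 1 gene of the list that rose, at 14.03, 13.82 and 14.08 against 12.30 and 12.41. Gpr183 (EBI2), a receptor that guides cells to the outer follicle, was 11.35, 11.30 and 11.35 against 11.47 and 11.25, with overlap and a difference of -0.03 ± 0.30. Selplg was not called without naive array 1 (adjusted p = 0.062, range 6.1e-05 to 0.15 over all alternatives), and without the arrays of set 2 the count of falls was 3.

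Of 8 measured genes for homing to inflamed tissue, 4 rose, 0 fell and 4 were not called, beside 9.48% of all genes that rose. Cxcr3 was 10.18, 10.88 and 12.23 on Venus-high arrays and 2.31 and 2.30 on naive arrays. Cxcr6 was 11.14, 10.46 and 11.84 against 3.08 and 2.97. These are at least 68.4-fold and 70.8-fold higher, with all naive values below the floor. Ccr6 was at least 7.48-fold higher and Itgb1, the beta-1 integrin chain, rose by 4.25 ± 0.78. Without naive array 2, the calls of Ccr6 (adjusted p = 0.070, range 0.00057 to 0.11 over all alternatives) and Itgb1 (0.058, range 0.00011 to 0.13) were lost and 2 rises were left, and Ccr6 was also lost without naive array 1 (0.071).

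The naive and quiescence list held 24 measured genes, of which 11 fell and 0 rose (4.23% of all genes fell), and its median was -0.86. With the array set as a term 16 fell, beside 20.9% of all genes. Igfbp4, a binding protein for insulin-like growth factors that marks naive T cells, was 3.46, 3.73 and 5.55 on Venus-high and 14.31 and 14.36 on naive arrays, the largest fall among all genes taken by the naming rule (-10.09 ± 0.99, adjusted p = 0.00021, limma). Dapl1, another transcript abundant in naive cells, was 8.16, 4.02 and 7.35 against 14.27 and 14.39, and had the widest gap between array sets among the named genes called, -6.10 within set 1 and -10.37 within set 2. Treml2 was 5.97, 5.76 and 6.03 against 12.33 and 12.05.

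Transcription factors of the naive state fell to different degrees. Bach2, a repressor of effector genes, was 7.92, 5.22 and 8.71 against 13.00 and 11.28 and fell by 4.86 ± 1.09. Satb1, a chromatin organizer, was 10.25, 11.16 and 11.21 against 13.58 and 13.68 and fell by 2.76 ± 0.35. Lef1, a partner of beta-catenin, was 10.90, 11.50 and 12.20 against 13.22 and 13.83 and fell by 2.00 ± 0.48. These genes kept measurable levels in Venus-high Tfh, unlike Klf2. Foxo1, which maintains Klf2 and Il7r, was 12.92, 12.87 and 13.14 against 14.06 and 13.47, a difference of -0.79 that did not pass the test (adjusted p = 0.086) until the array set was a term (0.0023). Ets1 and Tgfbr2 differed by -0.13 and -0.01. Bach2 was not called without naive array 1 (adjusted p = 0.15, range 1.8e-05 to 0.15 over all alternatives), nor Lef1 without either naive array or Venus-high array 1 or 2 (0.059 to 0.17, range 4.7e-06 to 0.45). The count of falls was 8 without either naive array and 6 without the arrays of set 2.

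**Figure D2:**
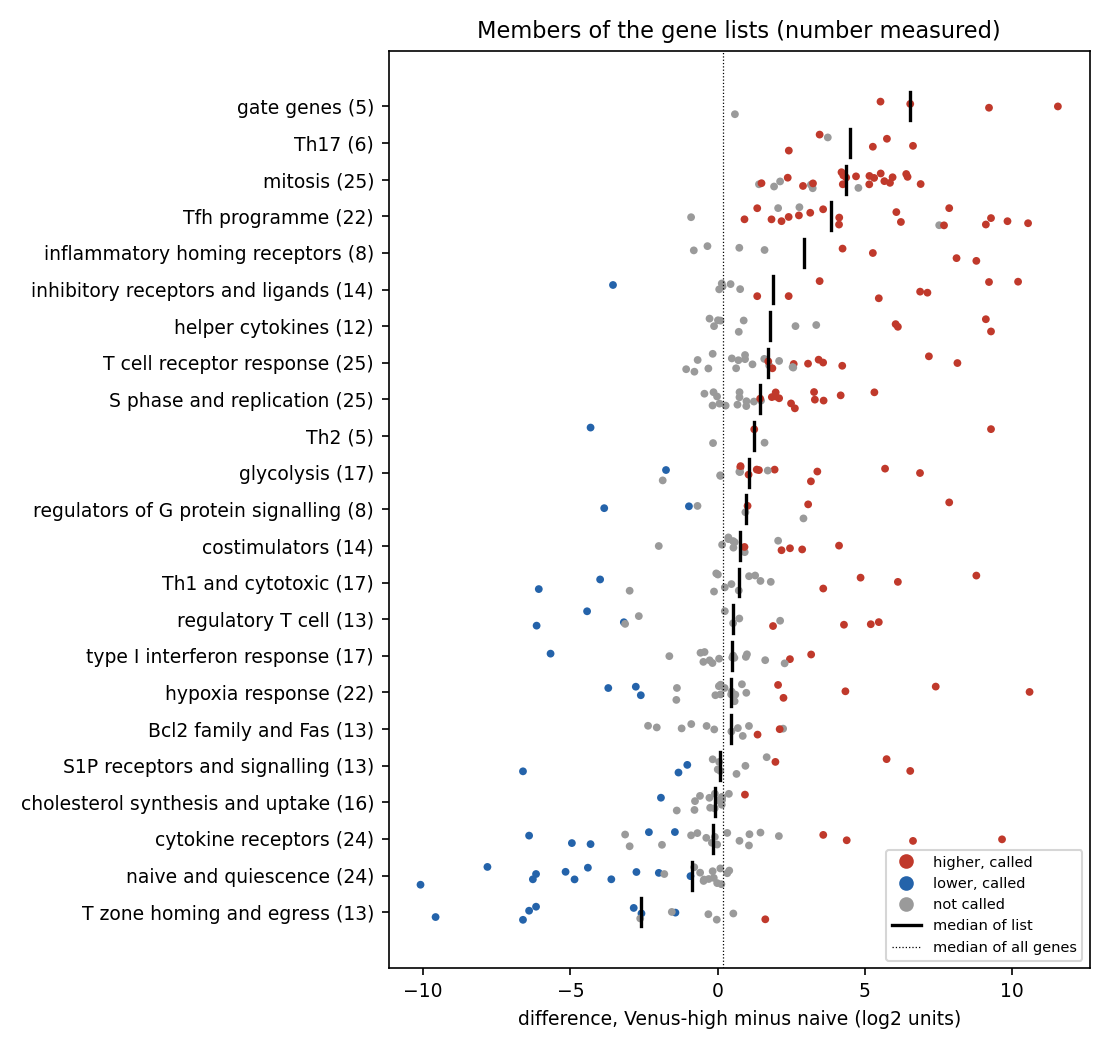
Log2 differences (x axis, Venus-high minus naive) of the measured members of 23 gene lists (y axis, number measured in parentheses), each point 1 gene, coloured where called; black bars are list medians and the dotted line the median of all genes, 0.18. The Tfh programme, with 18 rises of 22, lies to the right, and T zone homing and egress, with 7 falls of 13, lies to the left.

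Among 14 measured inhibitory receptors and ligands, 8 rose and 1 fell, beside 9.48% and 4.23% of all genes. The rises include Pdcd1, which the PD1-high gate selects for and which is no finding. Lag3, a CD4 homologue that binds MHC class II, was 12.23, 12.10 and 12.93 on Venus-high and 2.19 and 2.23 on naive arrays, at least 172-fold higher (difference 10.21 ± 0.70, adjusted p = 2.73e-05, limma). On PD1-low Th arrays it was 3.21 and 5.59. The difference from PD1-low Th was thus 8.02, and that between PD1-low Th and naive cells 2.19. Cd160, a ligand of HVEM, was 11.49, 11.47 and 11.96 against 4.18 and 4.85, at least 99.8-fold higher. Pdcd1lg2, which encodes the PD1 ligand PD-L2, was 8.52, 8.68 and 10.63 against 2.39 and 2.40, at least 19.4-fold higher. Ctla4 rose by 5.48 ± 0.99, from 7.66 and 5.28 to 11.34, 11.65 and 12.86. Btla, another receptor of HVEM, rose by 1.35 ± 0.23. Havcr2 (TIM-3) was below the floor on all 5 arrays, from 2.16 to 2.71. Lair1, a collagen receptor, was the 1 gene that fell, at 2.27, 2.40 and 2.91 against 6.86 and 5.30. Without naive array 2 the count of rises was 5 and the call of Ctla4 was lost (adjusted p = 0.062, range 0.00027 to 0.14 over all alternatives), without naive array 1 the fall of Lair1 was not called (0.094, range 0.00019 to 0.24), and without the arrays of set 2 there were 3 rises.

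Of 14 measured costimulators 5 rose and 0 fell, beside 9.48% and 4.23% of all genes. With the array set as a term 8 rose and 1 fell, beside 20.2% and 20.9% of all genes. Tnfsf8, the CD30 ligand, was 10.87, 10.00 and 10.78 against 5.96 and 6.89 and rose by 4.13 ± 0.49. Tnfrsf4 (OX40) was 12.38, 12.46 and 12.89 against 10.00 and 9.41, and rose by 2.88 ± 0.42. Cd28, which gives the classical second signal, was 11.68 to 13.20 on Venus-high and 11.69 to 11.96 on naive arrays, with overlap. The count of rises was 3 without Venus-high array 3, where 1 fell, and 3 without either naive array.

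Genes induced by T cell receptor signalling were divided. Of 25 measured, 9 rose and 0 fell, beside 9.48% and 4.23% of all genes. With the array set as a term 15 rose and 3 fell, beside 20.2% and 20.9% of all genes. Bhlhe40, a repressor induced on activation, was 9.43, 10.22 and 11.97 on Venus-high and 2.09 and 2.69 on naive arrays, at least 46.5-fold higher. Dusp4, a phosphatase that restrains MAP kinases, was 9.29, 9.89 and 11.19 against 2.44 and 3.44, at least 34.9-fold higher. Egr2 and Nfatc1, which act downstream of calcium signalling, rose by 3.07 and 2.59. Immediate early genes of receptor signalling were divided too. Fos rose by 3.43 and Jun by 1.72 (adjusted p = 0.010 and 0.039, limma). The call of Fos was lost without either naive array (0.053 and 0.078). That of Jun was lost without either naive array or Venus-high array 2 or 3 (0.060 to 0.28). Nr4a1 was 6.53, 8.99 and 8.94 against 6.54 and 8.50, and Egr1 was 13.31, 13.70 and 13.82 against 13.04 and 13.22. Neither was called (adjusted p = 0.85 and 0.28). With the array set as a term, Egr1, Egr3 and Nr4a3 were called higher. Cd69, an early activation marker that also holds back S1PR1, was 11.90, 12.43 and 13.30 against 12.76 and 12.95. The count of rises was 5 without naive array 2 and 2 without the arrays of set 2.

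Of 12 measured cytokine genes 4 rose and 0 fell, beside 9.48% and 4.23% of all genes. Il4 and Il21 were among the rises. Ifng, the Th1 cytokine, was 7.43, 8.22 and 11.21 on Venus-high and 2.85 and 2.81 on naive arrays, at least 15.5-fold higher. Tgfb3 was 8.05, 7.75 and 8.46 against 2.05 and 2.02, at least 8.50-fold higher. Il2 was below the floor on all 5 arrays, from 2.23 to 2.42. Tnf, Lta and Tgfb1 differed by 0.89, 0.10 and -0.12 and were not called.

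Cytokine receptors moved both ways, with 4 rises and 5 falls among 24, beside 9.48% and 4.23% of all genes. The interleukin-1 receptors rose most: Il1r2, the decoy receptor, was 11.41, 11.90 and 12.06 against 2.12 and 2.12, at least 110.0-fold higher, and Il1r1, the signalling receptor, was 7.19, 9.51 and 10.68 against 2.40 and 2.57, at least 17.5-fold higher. Il2rb, a chain shared by the IL-2 and IL-15 receptors, was 13.16, 13.26 and 13.50 against 9.86 and 9.58 and rose by 3.59 ± 0.28. Il12rb1 rose by 4.39 ± 0.54. Beside Il7r, the falls included Il4ra, the receptor for IL-4, at 7.36, 7.78 and 8.54 against 12.16 and 12.25, a fall of 4.31 ± 0.34. Both chains of the interferon gamma receptor were lower, Ifngr1 by a fall of 2.33 and Ifngr2 by at least 8.28-fold. The call of Ifngr2 was lost without naive array 2 (adjusted p = 0.13, range 2.5e-05 to 0.13 over all alternatives), and that of Ifngr1 without naive array 1 (0.15) or Venus-high array 2 (0.063, range 0.00013 to 0.15). With the array set as a term, 6 rose and 10 fell, beside 20.2% and 20.9% of all genes.

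Egln3 encodes a prolyl hydroxylase (PHD3) that marks hypoxia-inducible factor (HIF) for degradation and is itself a HIF target. It was 12.65, 12.86 and 13.12 on Venus-high and 2.25 and 2.30 on naive arrays, at least 235-fold higher (difference 10.60 ± 0.29, adjusted p = 1.92e-07, limma). The PD1-low Th arrays lay between, at 5.29 and 5.91, a difference of 3.32 ± 0.32 from naive cells that was also called (adjusted p = 0.010). The related hydroxylases Egln1 and Egln2 differed by 0.46 and 0.58 and were not called (adjusted p = 0.53 and 0.22).

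The hypoxia list as a whole was divided. Of 22 measured genes, 5 rose and 3 fell, beside 9.48% and 4.23% of all genes. The median of the list was 0.47. Hif1a was 13.95, 13.77 and 14.53 against 11.76 and 11.91, a rise of 2.24 ± 0.39. Nfil3, a basic leucine zipper factor, was 10.56, 10.86 and 11.61 against 3.63 and 3.56, at least 64.5-fold higher. Ak4, an adenylate kinase of mitochondria, was 8.73, 7.36 and 9.39 against 5.59 and 2.70. Epas1 (HIF-2 alpha) was 4.24, 5.84 and 5.87 against 8.52 and 9.54 and fell by 3.71 ± 0.96. Some classical HIF targets were not called: Slc2a1, the glucose transporter GLUT1, differed by 0.48 ± 0.43 and Ddit4 by 0.24 ± 0.32, while Pdk1, at 11.32, 12.27 and 12.79 against 13.37 and 13.69, had a difference of -1.40 that did not pass the test (adjusted p = 0.068). The call of Ak4 was lost without Venus-high array 1 (adjusted p = 0.084), Venus-high array 3 (0.11) or naive array 2 (0.29), with a range of 0.0020 to 0.29 over all alternatives. That of Epas1 was lost without each of the 5 arrays in turn (adjusted p from 0.056 to 0.21, range 0.00015 to 0.31). The count of rises was 3 without Venus-high array 1, Venus-high array 3 or naive array 2. The count of falls was 1 without Venus-high array 2 or 3 and 0 without Venus-high array 1 or either naive array.

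Of 17 measured genes of glycolysis 10 rose and 1 fell, beside 9.48% and 4.23% of all genes. The median of the list was 1.05. Some rises were small, as those of Pkm, Pfkp and Pfkl, from 1.05 to 1.94. Tpi1, triose phosphate isomerase, was 13.68, 13.37 and 13.86 against 10.43 and 10.50 and rose by 3.17 ± 0.32. Aldoc, an aldolase isoform, was 8.38, 9.94 and 10.68 against 2.48 and 3.09, at least 25.4-fold higher. Slc16a3, the lactate exporter MCT4, was 9.12, 9.06 and 9.84 against 3.58 and 3.72, at least 20.3-fold higher. Ldha, lactate dehydrogenase A, was 14.24, 14.27 and 14.67 against 14.29 and 14.31, with overlap and a difference of 0.09 ± 0.24. Slc2a3, the glucose transporter GLUT3, averaged 9.45 ± 1.33 (SD, n = 3) on Venus-high and 11.32 ± 0.04 (SD, n = 2) on naive arrays without overlap, a difference of -1.86 that did not pass the test (adjusted p = 0.23, limma) until the array set was a term (0.0038). Eno3 fell by 1.75 ± 0.38. The count of rises was 6 without Venus-high array 2 or either naive array and 3 without the arrays of set 2, and the fall of Eno3 was not called without Venus-high array 2 (adjusted p = 0.052) or naive array 1 (0.13, range 0.00047 to 0.13 over all alternatives).

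ACGTG, a core form of the element bound by HIF, was looked for on either strand in the RefSeq promoters of these genes (GRCm38.p6, 250 bases before to 50 after the start). Other forms of the element were not counted. ACGTG is also part of the E-box CACGTG, which other factors bind. The hypoxia list includes classical HIF targets, so its share of the motif is a description and no finding. Counted per gene, in any of its promoters, the motif was in 14 of 20 hypoxia list members with a promoter (70.0%) and 12 of 16 glycolysis members (75.0%). The share was 30.3% of 8095 genes tested and 21.8% of all 27025 genes with a promoter. Counted per promoter, it was in 15 of 30 for the hypoxia list (50.0%) and 15 of 26 for glycolysis (57.7%). That share was 26.1% of 10346 promoters of genes tested and 19.6% of all 32851 promoters of that length. The following promoters are shown as examples of genes with a large rise (Egln3), a smaller rise (Slc16a3) and no call (Ldha), with none from a gene that fell, and with capitals at each motif or its reverse complement (CACGT):
Egln3 (chr12:54203825-54204124, minus strand): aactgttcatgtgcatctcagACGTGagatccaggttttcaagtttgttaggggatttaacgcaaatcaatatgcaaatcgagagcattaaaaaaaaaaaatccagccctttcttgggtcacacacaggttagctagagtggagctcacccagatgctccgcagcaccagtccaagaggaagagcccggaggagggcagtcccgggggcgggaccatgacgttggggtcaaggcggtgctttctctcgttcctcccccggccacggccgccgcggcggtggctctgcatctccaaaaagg
Slc16a3 (chr11:120948817-120949116, plus strand): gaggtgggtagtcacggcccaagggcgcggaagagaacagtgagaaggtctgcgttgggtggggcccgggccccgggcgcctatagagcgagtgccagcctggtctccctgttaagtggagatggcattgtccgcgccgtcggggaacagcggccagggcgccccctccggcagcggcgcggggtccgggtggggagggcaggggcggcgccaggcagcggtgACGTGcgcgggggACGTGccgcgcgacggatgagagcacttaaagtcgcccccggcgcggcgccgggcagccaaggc
Ldha (chr7:46845554-46845853, plus strand): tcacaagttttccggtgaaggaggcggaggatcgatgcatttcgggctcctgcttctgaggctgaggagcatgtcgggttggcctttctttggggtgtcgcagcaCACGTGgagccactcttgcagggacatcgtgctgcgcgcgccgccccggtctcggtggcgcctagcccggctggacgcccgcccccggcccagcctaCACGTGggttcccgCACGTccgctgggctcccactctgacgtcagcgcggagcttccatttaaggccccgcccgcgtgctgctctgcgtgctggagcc
The Egln3 window holds 1 match, that of Slc16a3 holds 2 and that of Ldha holds 5 counted over both strands. In the Ldha window each CACGTG was counted on both strands, so its matches outnumber its marked stretches. A further RefSeq promoter of Ldha (chr7:46846832-46847131, plus strand), not printed, holds 0. A match describes the sequence and is no evidence of binding.

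Of 25 measured mitotic genes 19 rose and 0 fell, with a median of 4.37, and of 25 genes of S phase and replication 12 rose, 0 fell and 13 were not called, with a median of 1.45. Of all genes 9.48% rose and 4.23% fell. Mki67, the proliferation antigen, was 12.70, 13.43 and 12.90 on Venus-high and 7.15 and 7.15 on naive arrays, a rise of 5.86 ± 0.49 (adjusted p = 8.33e-05, limma). Nusap1, Tpx2 and Cdk1, which act on the mitotic spindle or start mitosis, were at least 43.9-fold, 29.5-fold and 21.7-fold higher. Cdk1 was 8.72, 9.74 and 9.86 against 3.04 and 3.02. Ccnb2, its cyclin partner, was 9.96, 10.36 and 10.39 against 4.75 and 3.83, at least 37.7-fold higher. In the S phase list, Lig1, which joins Okazaki fragments, rose by 3.28 ± 0.41, Rrm2 by 2.50 ± 0.37 and Mcm6 by 1.97 ± 0.29. Pcna, the replication clamp, was 12.67, 13.13 and 13.42 against 13.20 and 12.99, with overlap, and Mcm4 and Mcm7 differed by 0.07 and 0.28. Top2a was 10.07, 3.24 and 11.23 against 6.15 and 3.86 and has a displaced probe set. The mitotic count was 12 without naive array 1 and 9 without the arrays of set 2, and the S phase count was 5 without Venus-high array 2 or either naive array and 2 without the arrays of set 2.

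Genes of other helper lineages were mixed. Of 17 Th1 and cytotoxic genes, 4 rose (Cxcr3, Ifng, Gzma and Il2rb) and 2 fell, beside 9.48% and 4.23% of all genes. Gzma, a granzyme, was 7.72, 7.06 and 7.58 against 2.43 and 2.76, at least 5.48-fold higher, whereas Gzmb stayed from 2.05 to 2.11 on all 5 arrays. Tbx21, the Th1 regulator T-bet, was below the floor on all 5 arrays. Runx3 was 4.64, 4.88 and 4.63 against 10.92 and 10.66, at least 55.4-fold lower, and Ctsw, a cathepsin of cytotoxic cells, fell by 3.99 ± 1.02 but was not called without either naive array or Venus-high array 1 or 2 (adjusted p from 0.082 to 0.20, range 0.00062 to 0.50 over all alternatives). In the Th17 list 5 of 6 rose: Rora was 10.17, 10.20 and 11.33 against 5.09 and 4.54 and rose by 5.75 ± 0.60, beside Il1r1, Ccr6, Tmem176a and Tmem176b. The Th17 count was 3 without naive array 2, where Ccr6 (adjusted p = 0.070, range 0.00057 to 0.11) and Tmem176b (0.099, range 6.5e-05 to 0.11) were not called, and 1 gene of the Th1 list fell without Venus-high array 2 or either naive array. Gata3, the Th2 regulator, rose by 1.25 ± 0.21.

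Regulatory T cell genes split, with 4 of 13 rising and 3 falling, beside 9.48% and 4.23% of all genes. Foxp3, the factor that defines these cells, was 6.19, 5.73 and 6.07 on Venus-high and 10.14 and 8.21 on naive arrays, a fall of 3.18 ± 0.52. Gpr83 was 4.84, 3.10 and 5.27 against 10.65 and 10.46 and fell by 6.15 ± 0.63. Il2ra (CD25), at 3.65, 3.90 and 4.83 against 6.87 and 7.67, was lower without passing the test (adjusted p = 0.13). The rises included genes that activated T cells also express: Ikzf2 was 12.82, 13.51 and 13.79 against 9.01 and 9.16, and Nrp1 was 12.98, 13.25 and 13.82 against 8.34 and 7.95, rises of 4.30 ± 0.47 and 5.21 ± 0.41. In these pooled cells, fewer cells of a type and less RNA per cell cannot be told apart. The part of regulatory T cells in the naive sort was not tested.

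Regulators of G protein signalling (RGS), which shorten the signal of chemokine and S1P receptors, were altered in 5 of 8 measured genes. Of these 3 rose and 2 fell, beside 9.48% and 4.23% of all genes. Rgs16 was 10.98, 11.08 and 10.37 against 2.58 and 3.30, at least 56.0-fold higher. Rgs3 was 10.62, 10.80 and 10.99 against 7.58 and 7.86 and rose by 3.08 ± 0.28. Rgs10 rose by 1.02, Rgs14 fell by 0.97, Rgs11 fell by 3.85, and Rgs1, at 8.64, 10.76 and 11.08 against 6.50 and 7.99, did not pass the test (adjusted p = 0.078). The call of Rgs10 was lost without naive array 1 (adjusted p = 0.077, range 5.2e-05 to 0.14 over all alternatives). That of Rgs11 was lost without Venus-high array 2 or 3 or either naive array (adjusted p from 0.073 to 0.23, range 0.00058 to 0.27). That of Rgs14 was lost without Venus-high array 2 or either naive array (0.053 to 0.096, range 0.00011 to 0.16), and the count of falls was 1 without Venus-high array 3 and 0 without Venus-high array 2 or either naive array.

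The remaining lists had few calls, beside 9.48% of all genes that rose and 4.23% that fell. With the array set as a term, 4 of 17 type I interferon response genes rose and 4 fell. In that fit 4 of 13 Bcl2 family genes rose and 5 fell, and 1 of 16 cholesterol genes rose and 5 fell. Of all genes 20.2% rose and 20.9% fell with the term. Of 17 type I interferon response genes 2 rose (Mx1 by 3.18 ± 0.45 and Oas1a by 2.46 ± 0.36) and 1 fell. Oas2 was 2.13, 3.18 and 3.63 against 7.99 and 9.32, at least 12.6-fold lower, opposite to Oas1a of the same family; its call was lost without naive array 2 (adjusted p = 0.056, range 1.2e-05 to 0.23 over all alternatives), where the count of falls was 0. In the Bcl2 family list 2 of 13 rose, Bad and Bik, and neither was called without either naive array (adjusted p from 0.051 to 0.21, range 9.5e-05 to 0.30 over all alternatives). Bcl2, the survival gene, was 10.50, 10.12 and 12.49 against 13.50 and 13.30 and did not pass the test (adjusted p = 0.066) until the array set was a term (0.00036). Of 16 genes of cholesterol synthesis and uptake 1 rose (Fdft1) and 1 fell (Idi1), and neither was called without naive array 2 (adjusted p = 0.15 and 0.12, range 1.8e-05 to 0.30). Fdft1 was also not called without naive array 1 or Venus-high array 1 or 2. Without Venus-high array 2 or 3 the Bcl2 family list had 1 rise, and without Venus-high array 3 it had 1 fall.

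Further genes with the largest rises are in none of these lists. Vdr, the vitamin D receptor, was 12.76, 13.50 and 12.96 on Venus-high and 2.50 and 3.47 on naive arrays, at least 269-fold higher. Padi4, a peptidyl arginine deiminase known from neutrophils, was 13.73, 13.08 and 13.01 against 2.41 and 3.38, at least 310-fold higher. Gal, which encodes the neuropeptide galanin, was 13.24, 12.45 and 13.62 against 4.14 and 2.37, at least 275-fold higher. All of these were below the floor on both naive arrays and on both PD1-low arrays. Dnase1l3, a secreted nuclease, and Ttc39c were at least 99.5-fold and 79.6-fold higher.

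Genes with the largest falls included Dntt, the terminal transferase of developing lymphocytes, at 2.39, 2.49 and 2.17 against 10.31 and 10.25, at least 38.8-fold lower. Pdlim4 was 2.04, 2.06 and 2.04 against 11.79 and 11.37, at least 95.8-fold lower, and Ampd1, the muscle AMP deaminase, was 2.17, 2.22 and 2.05 against 10.41 and 10.46, at least 43.3-fold lower. Itgb3, the beta-3 integrin chain, was 2.33, 3.16 and 4.61 against 12.48 and 12.62, at least 188-fold lower. Signalling genes were also among them: Rasgrp2, which activates Rap1 and integrins, was 5.11, 6.50 and 4.20 against 12.63 and 12.80, and Pik3r5, a regulatory subunit of the PI3-kinase gamma complex, was 5.47, 6.42 and 4.20 against 12.93 and 12.66. Rras2, Lypd6b and Amigo2 were at least 79.5-fold, 27.3-fold and 26.9-fold lower.

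**Figure D3:**
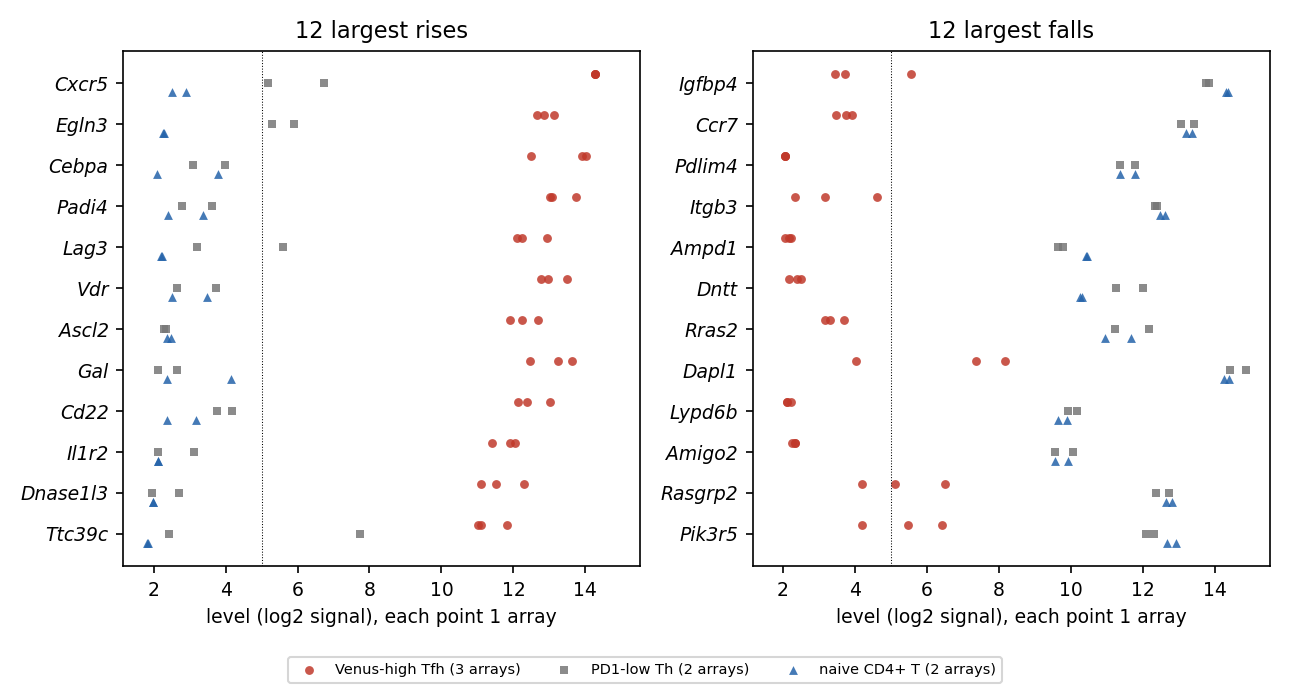
Log2 signal (x axis) on each Venus-high (red circles), PD1-low Th (grey squares) and naive array (blue triangles) for the 12 largest rises and the 12 largest falls (y axis, gene symbols); the dotted line marks log2 5. For all 24 genes the mean of the PD1-low arrays is nearer to the naive than to the Venus-high mean. These genes were chosen by their difference between Venus-high and naive cells and do not stand for all genes. Other called genes, such as Il2rb and Nrp1, were nearer to Venus-high Tfh.

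PD1-low Th come from the same tissue as Venus-high Tfh, so their levels show where a gene stands in activated lymph node cells outside the follicular gate. Their comparisons with Venus-high Tfh and with naive cells share arrays with the main comparison and are set side by side only. Against Venus-high Tfh 1115 genes were called (11.3%), and against naive cells 8 (0.0809%; limma, 2 arrays against 2). For the 12 largest rises the difference between Venus-high and PD1-low cells was 6.23 to 10.72 and that between PD1-low and naive cells -0.87 to 3.32. For the 12 largest falls these differences were -9.55 to -6.84 and -0.73 to 1.34. S1pr1 was 9.37 and 9.61 on the PD1-low arrays, close to its naive level, and Ccr7 differed by -0.04 between PD1-low and naive cells.

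Il2rb and Nrp1 were among the 8 genes called between PD1-low Th and naive cells. Il2rb stood 2.97 ± 0.31 above its naive level in PD1-low Th (adjusted p = 0.015, limma) and 0.62 ± 0.28 higher again in Venus-high Tfh (adjusted p = 0.26). Nrp1 stood 4.06 ± 0.45 above its naive level (adjusted p = 0.021) and 1.15 ± 0.41 higher again in Venus-high Tfh (adjusted p = 0.13). Other genes had differences of similar size between PD1-low and naive cells that did not pass the test: 4.77 for Cd44 and 3.58 for Ikzf2 (adjusted p = 0.066 for each), 3.09 for Irf4 (0.16), 4.75 for Ctla4 (0.32) and 5.53 for Cxcr3 (0.35). Between Venus-high and PD1-low cells none of these 5 genes was called either, with differences of 0.77, 0.72, 0.49, 0.73 and 3.27 and adjusted p from 0.14 to 0.79. For Maf the difference of 3.08 between PD1-low and naive cells did not pass the test (0.21), whereas that of 3.15 ± 0.57 between Venus-high and PD1-low cells did (0.0071). Foxp3 was lower in Venus-high Tfh than in PD1-low Th (difference -5.94 ± 0.52, adjusted p = 0.00013), and its difference of 2.75 between PD1-low and naive cells was not called (0.22).

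Markers of other cell types were checked because germinal centre cells are in close contact. Of 11 B cell markers on the array, Cd79a, Cd79b, Ms4a1, Blnk, Cr2, Fcer2a and Blk were below the floor on all 5 arrays. Ebf1 was 6.89, 6.77 and 2.33 on Venus-high and 7.54 and 6.90 on naive arrays. Pax5 was 2.05, 5.67 and 2.05 against 2.06 and 5.69, and both genes have displaced probe sets. The mean log2 level over the 11 markers was 3.62 to 4.33 on Venus-high and 3.61 to 3.91 on naive arrays. Cd22, a sialic acid receptor of B cells, was nevertheless 13.01, 12.14 and 12.38 on Venus-high arrays against 2.39 and 3.18, at least 182-fold higher, while Cd72 was 7.15, 6.46 and 5.96 against 11.08 and 10.87 and fell by 4.45 ± 0.39. Of 7 germinal centre B and plasma cell markers, 5 reached the floor on a Venus-high array and 2 on a naive array, with mean levels of 5.27 to 6.50 and 3.87 to 3.92. Sdc1, the plasma cell marker CD138, was 7.82, 7.61 and 8.39 against 2.45 and 2.54, and Mef2b was 6.39, 7.74 and 8.94 against 2.34 and 2.26. Both were called higher. Jchain was 4.13, 7.83 and 7.43 against 3.46 and 3.43 and was not called with or without the array set as a term. Xbp1 was called higher only with that term. Prdm1 went the other way, with a difference of -1.09, and was not called in either fit. Gcsam and Mybl1 were below the floor on all 5 arrays. The part of these markers in the results on Venus-high Tfh was not tested. Of 12 myeloid markers, Lyz2, Cd14, Csf1r, Itgam, Itgax and 4 others were below the floor on all 5 arrays, with Cd68 at 9.26, 9.20 and 8.83 against 3.89 and 4.06. Cst3 was 11.23, 12.43 and 13.19 against 10.61 and 12.13, and S100a9 was 2.14, 5.33 and 2.25 against 6.30 and 5.08. Cd8a and Ncr1 were below the floor throughout, and Klrd1 was 9.45 and 9.73 on naive arrays against 2.03, 1.99 and 2.74. Cd8b1 reached 5.15 on naive array 2 and was below the floor on the other arrays. Gzma, also in this list, was above the floor on Venus-high arrays only. All 8 red cell and platelet markers were below the floor, and of 8 stromal and endothelial markers Pecam1 was the 1 above it on Venus-high arrays. Pecam1 was above it on naive arrays as well, and Pdpn reached 5.02 on naive array 2.

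**Figure D4:**
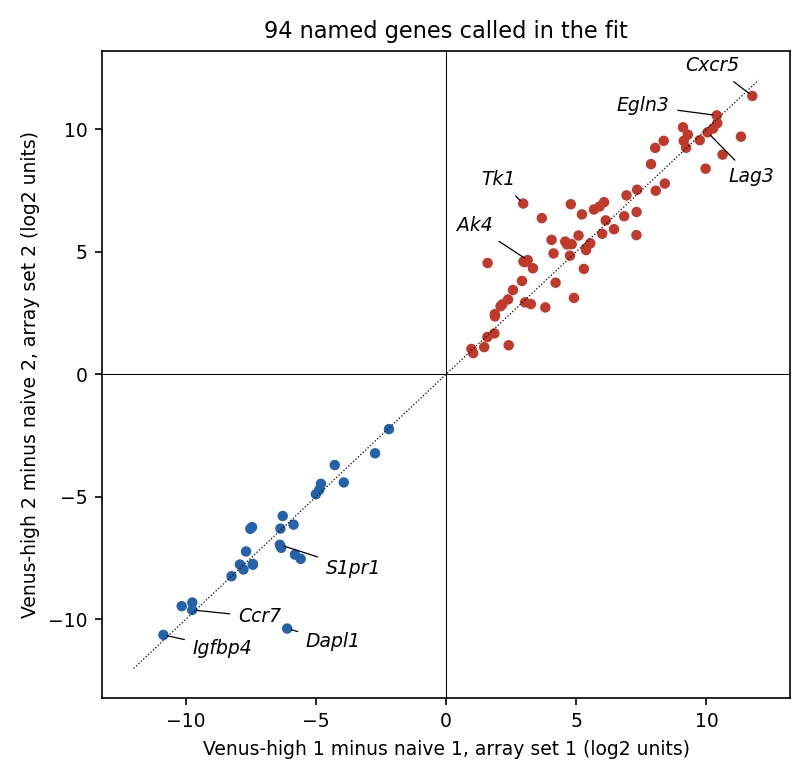
Differences between Venus-high and naive cells within array set 1 (x axis, array 1 of each) and within array set 2 (y axis, array 2 of each), in log2 units, for the 94 named genes called in the fit; red points are rises and blue points falls, and the dotted line marks equal differences. All called genes are without overlap between the groups, which fixes the sign that both differences share; the widest gap, 4.27, is that of Dapl1.

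The pair of within-set differences does not depend on values being comparable between array sets, since each sets arrays of 1 set against each other. For the 94 named genes called, the median gap between the sets was 0.55 log2 units and the smallest difference 0.87; the shared sign follows from the lack of overlap in all called genes and supports nothing. Of these 94 calls, 71 held without each of the 5 arrays in turn and 58 held without the 4 arrays of set 2, where 1 naive array was left.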

How the data were processed

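The 12 samples were sorted mouse CD4+ T cells on Affymetrix mouse arrays, from 20 ng of total RNA amplified with the Ovation RNA Amplification System V2, per the labels' protocols. For each probe set and array the authors deposited 1 log2 signal, made with GCRMA, per the submitters' processing notes; the version and which arrays were normalized together are not given in the sources used here. Of 45101 probe sets, 34958 had 1 gene symbol (34754 matched to RefSeq by Entrez ID), 932 several and 9211 none. Probe sets had to reach 5 (log2) on 2 or more arrays, and each gene was represented by its probe set with the highest mean over the 12 arrays (9893 genes). limma 3.58.1 under R 4.3.3 fitted the 12 arrays as 5 groups, with 7 residual degrees of freedom and 2-sided moderated tests, Benjamini-Hochberg adjusted over all genes, called at an adjusted p under 0.05. Where all arrays of a group were under 5 (log2), the fold is a bound, 2 to the power of the other group's mean minus 5. The floor was set here, as detection calls were not used. Array sets come from clustering the arrays' quantiles into 3, and the set as a term left 5 residual degrees of freedom. A probe set was displaced if its effect in 1 array set differed from both others by over 3 log2 units in 1 direction. Data simulated from the fit with the array set as a term held 100 changes of 1 log2 unit and 100 of 3. The fit without that term recovered 0% and 55% of them, with 0 false calls. With the term 54% and 91% were recovered, with 14 false calls. A gene that was not called may therefore still differ. Values were given for the gate genes, Lag3, Egln3 and S1pr1, the 12 largest rises and falls among called genes without overlap or displacement, up to 4 called members of each list with the largest change, and other list members. The comparison, its members and the gene lists were chosen with earlier results of these data known. The number of arrays limits the precision. Figures were made with matplotlib 3.10.9 under Python 3.11.15.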

Additional observations from a re-analysis of the deposited data

How the results depend on the processing

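The fit of the 12 arrays called 938 genes higher and 418 lower (1356). With the 5 Venus-high and naive arrays alone it called 499 and 182 (681), and with an adjusted p under 0.01 571 and 229 (800). With array weights 1492 and 851 (2343) were called, and with quantile normalization 902 were lower. With the array set as a fixed term 2001 and 2065 (4066) were called, as a random block 2054 and 2006 (4060), and as a fixed term without displaced probe sets 2025 and 2095 (4120). Without the arrays of set 2, 327 and 150 (477) were called. The higher share was 69.2% in the fit of 12 arrays, 68.6% without the arrays of set 2, 54.9% with the replicate block, 55.1% with quantile normalization and 50.6% with the random block. Leaving out 1 array gave 564 to 950 higher, 247 to 422 lower and 818 to 1295 in all. Over all lists, 148 genes were called, 111 higher and 37 lower. The lower count was 24 with the 5 arrays alone, 71 with the array set as a fixed term, 72 as a random block or without displaced probe sets as well, and 21 at 0.01; without the arrays of set 2 the counts were 67, 53 and 14. Leaving out 1 array gave 96 to 142 calls, 75 to 112 higher and 20 to 36 lower. Venus-high against PD1-low Th gave 3428 with the array set as a term, and PD1-low Th against naive cells 56 with it and 17 without displaced probe sets.

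Arrays 1 and 2 of each group share a number, and with 2 pairs a correlation of deviations (0.89, and 0.63 without displaced probe sets) is a hint only. The replicate block on 12 arrays gave 1070 higher and 880 lower (1950), and on 5 arrays 572 and 305 (877). No named gene changed direction under any of the 22 alternatives. Leaving out arrays cannot turn the sign of a gene without overlap, as all called genes are, so this adds little. Of the 94 called, 53 kept their call under each alternative. The array set as a term without displaced probe sets, and leaving out the arrays of set 2, were chosen after seeing the data. What set 2 contributes to a call cannot be separated from naive array 2, which lies in it.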
